A study of Botryllus schlosseri with 27 samples.

Results

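The contig CAP3_round1_contig_7853 is an assembled transcript of the colonial tunicate Botryllus schlosseri whose best human match is Proactivator polypeptide, also called prosaposin, the precursor of the saposins. It was taken by that name and its contig identifier from the study's list of contigs that differed between 3-year-old and 4-month-old colonies, and it is 1 of 50106 contigs in the count table. It was therefore chosen on the difference between these ages, and that difference is given as a description with no test. The same name is carried by 6 other contigs of the list that were read, and 1 further contig is named Proactivator polypeptide-like 1. These 7 contigs are described beside it, and reads of near-identical copies or alleles could have been split between them. The match in the tunicate Ciona is an uncharacterized protein for CAP3_round1_contig_7853 and for the 6 others of its name. Only the Proactivator polypeptide-like 1 contig has a Ciona match with a proactivator name. The identity of CAP3_round1_contig_7853 as a saposin precursor therefore rests on its human match.

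Prosaposin is a chain of saposin domains that is cut apart in the lysosome. Each saposin is a small protein that lifts sphingolipids out of membranes or presents them to the hydrolase that degrades them, and the uncut precursor can also be secreted. In humans, loss of saposins gives lysosomal storage disease. The genome position, sequence and length of the contig were not used here, so levels of different contigs are not ranked against each other.

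RNA came from whole colonies, each a single genotype made of many zooids, of the wild-type lines SB825, SMG and SMH raised in the laboratory and collected at stage B2 of the budding cycle. Each line was sampled at 4 months, 2 years and 3 years, which gave 27 libraries, 3 of each line at each age, and no group received a treatment. The line called SMG is written SMGO in the paper and in the column names of its young libraries, and SMG in the labels of all 9 of its libraries, so every age difference in SMG rests on taking both names as 1 line. The 4-month-old colony of each line was an F1 of its 2-year-old genotype, which was an F1 of its 3-year-old genotype, so age and generation cannot be told apart. The 3 libraries of a line and age carry 1 genotype name, so their reads were added up to 1 value for a colony, and the 3 colonies of an age served as its replicates. The paper speaks of 3 biological replicates of a genotype, and the labels do not say how the libraries of a colony differ. P-values from separate libraries measure only the spread between libraries of a colony, which may be technical.

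Libraries held 31013902 to 45419128 reads at 4 months, 33140508 to 43704396 at 2 years and 32884060 to 48426188 at 3 years. Levels are given as CPM, the usual unit of reads relative to the total of a library, after TMM scaling, a scaling that sets libraries to a common composition. The median contig was 0.27 higher on the log2 scale at 3 years than at 4 months with TMM scaling and 0.13 higher with library totals alone. In whole colonies, fewer cells of a type and less RNA per cell cannot be told apart.

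The contig was low in young colonies of every line and far higher in 2-year-old and 3-year-old colonies. Colonies averaged 8.66 ± 2.27 CPM at 4 months, 85.1 ± 21.8 CPM at 2 years and 86.5 ± 20.5 CPM at 3 years (SD, n = 3 colonies each). The means at 2 years and 3 years differed by less than the spread between colonies. The 9 libraries of each age ran from 1.21 to 18.1 CPM with a median of 7.58 at 4 months, from 32.2 to 128 CPM with a median of 92.6 at 2 years, and from 51.9 to 135 CPM with a median of 77.3 at 3 years. No library of 4 months reached the lowest library of either older age.

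In SB825 the libraries held 316, 136 and 488 reads of the contig at 4 months, 5214, 5140 and 4398 reads at 2 years, and 2850, 2218 and 3136 reads at 3 years. In CPM these were 7.58, 2.88 and 9.72 at 4 months, 107, 109 and 78.8 at 2 years, and 67.1, 51.9 and 70.6 at 3 years. In this line the 2-year-old libraries lay above all 3-year-old ones. In SMG the libraries had 18.1, 2.49 and 1.21 CPM at 4 months, 68.6, 32.2 and 92.6 CPM at 2 years, and 135, 93.2 and 65.7 CPM at 3 years. Here the libraries of 2 and 3 years overlapped, and the first young library, with 714 reads, stood above the other two, with 96 and 42 reads. In SMH the libraries had 7.25, 9.16 and 14.4 CPM at 4 months, 128, 81.5 and 104 CPM at 2 years, and 77.3, 114 and 113 CPM at 3 years. The libraries of both older ages overlapped in SMH as well.

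**Figure D1:**
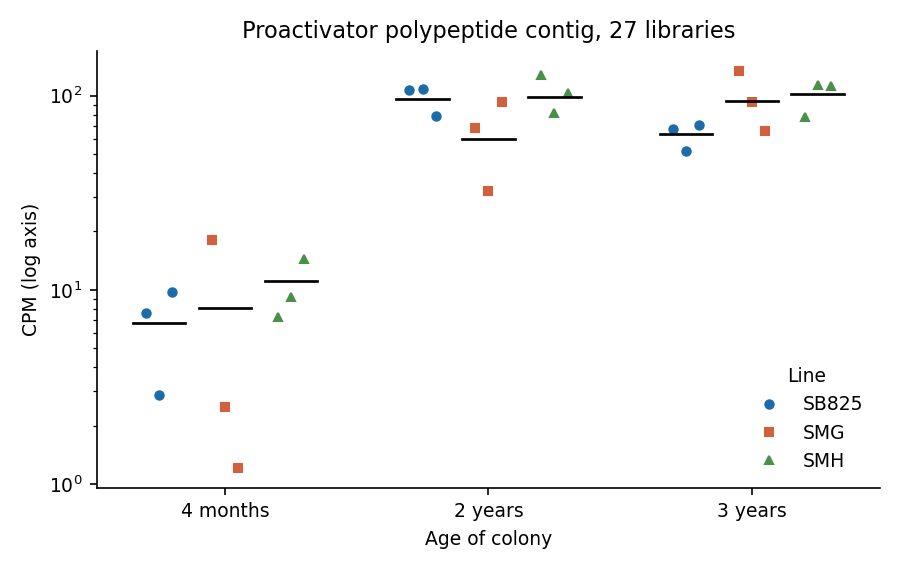
Level of CAP3_round1_contig_7853 in CPM on a log axis in 27 libraries, by age of the colony and line. Points are libraries and black bars are the level of the summed colony. Every point at 4 months, up to 18.1 CPM, lies below every point at 2 and 3 years, from 32.2 CPM.

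The order of the 9 colonies was headed by SMH at 3 years with 102 CPM, SMH at 2 years with 98.7 CPM, SB825 at 2 years with 96.6 CPM and SMG at 3 years with 93.7 CPM. SB825 at 3 years with 63.3 CPM and SMG at 2 years with 59.9 CPM came next. The young colonies closed the order with 11.2 CPM in SMH, 8.08 CPM in SMG and 6.73 CPM in SB825. The library ranges of neighbours in this order overlapped everywhere except between SMG at 2 years and SMH at 4 months.

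The contig was 3.37 higher on the log2 scale in 3-year-old than in 4-month-old colonies, the contrast that chose it. Within lines, the ratio of colony CPM at 3 years to 4 months was 9.41 in SB825, 11.6 in SMG and 9.17 in line SMH, and the mean log2 difference was 3.32 ± 0.19 (SD, n = 3 lines). All contigs with no overlap in that direction made up 10.4% of those tested when colonies were compared and 2.32% when the 9 and 9 libraries were compared. The 2-year-old libraries did not enter the list, but this comparison shares the young libraries with it and is likewise a description. The ratio of colony CPM at 2 years to 4 months was 14.3 in SB825, 7.41 in SMG and 8.84 in line SMH, with a mean log2 difference of 3.29 ± 0.49 (SD, n = 3 lines). Of the contigs tested, 8.87% did not overlap between colonies in that direction and 1.8% did not overlap between libraries.

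To ask whether the 2-year-old colonies sat midway between the other ages, they were set against the mean of the 3-year-old and 4-month-old levels on the log scale, a contrast that is orthogonal to the one that made the list where the ages have equal spread. The SD of log2 CPM between colonies was 0.37 at 4 months, 0.41 at 2 years and 0.37 at 3 years (n = 3 each). These SDs rest on few colonies. The study's list was made on separate libraries, whose SD within colonies was unequal, at 1.3, 0.51 and 0.38 at these ages. Independence from the list is therefore not assured, and the p-values below carry that limit. The contig was 1.65 higher (log2, SE 0.25) over 9 colonies with line in the model, an amount close to its distance from that midpoint at 3 years. The edgeR quasi-likelihood test gave an adjusted p of 0.997, and 0% of 44811 contigs passed the 10% false discovery rate in this comparison, while 1401 had an unadjusted p under 0.05. DESeq2 on the same colonies gave 1.64 (SE 0.31) with an adjusted p of 0.000202 and called 260 contigs. The call on colonies thus depended on the tool, and its direction did not. With independence from the list not assured, neither adjusted p is read as evidence about the contig.

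Within lines only separate libraries could be set against each other, and their spread was unequal. The SD of log2 CPM between libraries of a colony was 1.3 at 4 months, 0.51 at 2 years and 0.38 at 3 years. For this reason the contrast within a line is not independent of the choice of the contig, and its values are a description with no test. The contig was 2.25 higher at 2 years than the mean of the other ages in SB825 (log2, SE 0.54), 1.27 higher in SMG (SE 0.54) and 1.70 higher in line SMH (SE 0.54). In SMG the value was 2.25 without library 1 of 4 months and 0.80 with library totals alone.

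The change between 3 and 2 years ran in different directions in the lines. The ratio of colony CPM at 2 years to 3 years was 1.53 in SB825, 0.64 in SMG and 0.96 in line SMH. The test of the difference in this change between lines was added after the levels had been seen. It gave 1.24 for SB825 minus SMG (log2, SE 0.91, adjusted p = 0.367), 0.65 for SMH minus SMG (SE 0.91, adjusted p = 0.637) and 0.59 for SB825 minus SMH (SE 0.91, adjusted p = 0.684). None of the 3 passed by edgeR or DESeq2, with edgeR's unadjusted p of 0.191, 0.484 and 0.526, while 32%, 40% and 38.5% of all contigs did. These tests share 1 estimate of spread with the young libraries, which spread more widely, so they are not read as showing no difference.

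No difference between lines in the contig passed the test on colonies. Over all ages SMG minus SB825 was 0.04 (log2, SE 0.30, adjusted p = 0.951), SMH minus SB825 was 0.46 (SE 0.30, adjusted p = 0.551) and SMH minus SMG was 0.42 (SE 0.29, adjusted p = 0.658) by edgeR's quasi-likelihood test. Of 44811 contigs, 4.55%, 1.43% and 0.464% were called in these comparisons. The sign of the SMG and SB825 difference was not stable. It was -0.48 with library totals alone and -0.53 without library 1 of the young SMG colony.

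Line pairs at 1 age were compared on libraries, and the contig passed in 0 of 9 comparisons by edgeR or by DESeq2, with edgeR's unadjusted p from 0.293 to 0.939. At 4 months the differences were 0.12 for SMG minus SB825, 0.61 for SMH minus SB825 and 0.49 for SMH minus SMG, where 78%, 58.9% and 74.4% of all contigs were called. At 2 years they were -0.61, 0.09 and 0.70 for the same pairs, where 61.4%, 56.3% and 46.6% were called. At 3 years they were 0.63, 0.68 and 0.05, where 56.9%, 52% and 46.7% were called. Standard errors were 0.64 to 0.67 in these comparisons. All groups of libraries share 1 estimate of spread, although the SD of log2 CPM between libraries of a colony was 1.3 at 4 months, 0.51 at 2 years and 0.38 at 3 years. The tests at 2 and 3 years therefore carry the wider spread of young libraries. At 3 years all SMH libraries, from 77.3 CPM, lay above all SB825 libraries, up to 70.6 CPM. A comparison that did not pass is thus not read as no difference. The young SMG library with 714 reads decided both comparisons of SMG at 4 months. Without it, SMG minus SB825 was -1.85 (SE 0.55, adjusted p = 0.00612) and SMH minus SMG was 2.46 (SE 0.56, adjusted p = 0.00081), and both passed.

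**Figure D2:**
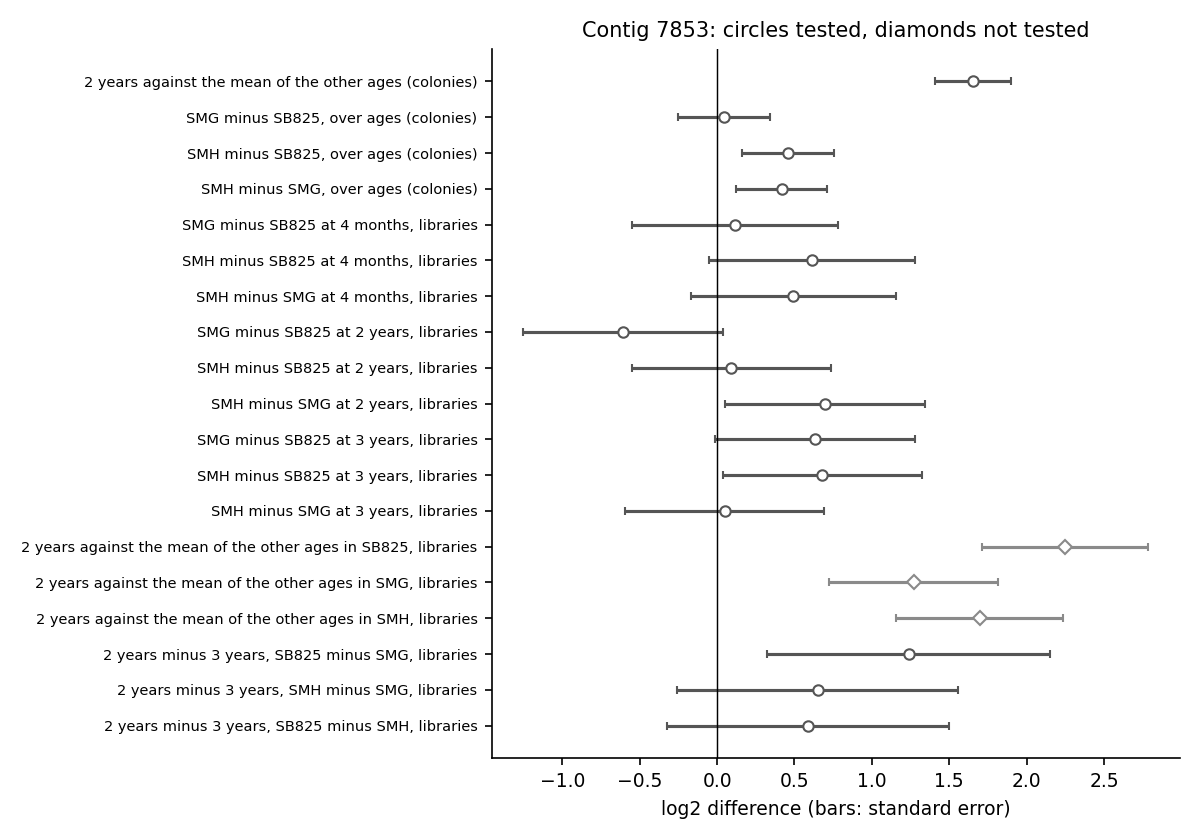
Log2 difference of CAP3_round1_contig_7853 in each comparison, with bars for 1 standard error. Circles are tested comparisons, none with an adjusted p under 0.10 by edgeR, and diamonds are the 3 comparisons given with no test. The highest tested value is 1.65, for 2 years against the mean of the other ages on colonies, and the values within lines are 2.25, 1.27 and 1.70.

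Libraries of a young colony differed more in this contig than in most others. The coefficient of variation between the 3 libraries of a colony was 52% in SB825, 129% in SMG and 35.9% in line SMH at 4 months, 17%, 47.2% and 22.4% at 2 years, and 15.7%, 35.5% and 20.5% at 3 years. Its median over lines at 4 months, 52%, compared with 12.1% for the median contig and lay above 96% of 29900 contigs with a mean level of at least 1 CPM. At 2 years it was 22.4% against 12.5% and at 3 years 20.5% against 13.1%. The largest ratio between libraries of a colony was 15.0, in young SMG, where 83.8% of the colony's reads of the contig came from the first library.

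The other contigs named as saposin precursors were also lower at 4 months on the mean over colonies, to differing degrees. Their names come from the same list of the study, so this direction is not independent evidence. CAP3_round1_contig_6910, the contig of the group with the most reads, averaged 47.7 ± 35.7 CPM at 4 months, 167 ± 76 CPM at 2 years and 141 ± 8 CPM at 3 years (SD, n = 3 colonies each). In SMG, however, its colony level was 89 CPM at 4 months against 85.4 CPM at 2 years. Bot_c16357 averaged 10.3 ± 6.3 CPM at 4 months, 44.9 ± 13.1 CPM at 2 years and 43.4 ± 5.9 CPM at 3 years. Both overlapped between the ages when libraries were compared, because the first young SMG library held 171 CPM of the one and 35.5 CPM of the other.

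Bot_rep_c49449 averaged 4.33 ± 0.69 CPM at 4 months, 16.8 ± 7.9 CPM at 2 years and 14.7 ± 3.9 CPM at 3 years, and Bot_rep_c53587 averaged 2.86 ± 0.66, 15.8 ± 5.0 and 12.9 ± 1.5 CPM at these ages. Bot_c9011 averaged 0.37 ± 0.13, 3.82 ± 1.96 and 5.33 ± 2.85 CPM, and Bot_rep_c41040 averaged 0.11 ± 0.10, 1.34 ± 0.36 and 1.88 ± 0.58 CPM. By libraries, 3 of these 4 contigs did not overlap between 4 months and either older age, and Bot_rep_c49449 overlapped at 2 years, where its lowest library had 7.80 CPM against 8.07 CPM in the highest young one. Since their names come from a list made on this contrast, nothing is read from these counts beside the 2.32% and 1.8% of all contigs given above. No reads of Bot_rep_c41040 were counted in the young SMG colony, where 3 reads would amount to 0.020 to 0.034 CPM, depending on the colony.

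CAP3_round1_contig_9707, the Proactivator polypeptide-like 1 contig, did not follow the same course in all lines. From 4 months over 2 years to 3 years its colony level rose in SB825 (1.00, 10.4 and 50.1 CPM) and in SMG (0.019, 0.65 and 12.4 CPM). In SMH it was highest at 2 years (0.56, 12.3 and 0.77 CPM). At 4 months all its libraries were at or below 1.87 CPM. At 2 years the libraries of SMH had 8.41 to 18.1 CPM, those of SB825 had 6.47 to 17.1 CPM and those of SMG had 0.25 to 0.99 CPM. At 3 years the libraries ran from 28.5 to 71.9 CPM in SB825, from 10.5 to 13.8 CPM in SMG and from 0.57 to 0.97 CPM in SMH. It was the member of the group whose level over the 9 colonies was least like that of CAP3_round1_contig_7853 (Pearson r = 0.67, n = 9).

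**Figure D3:**
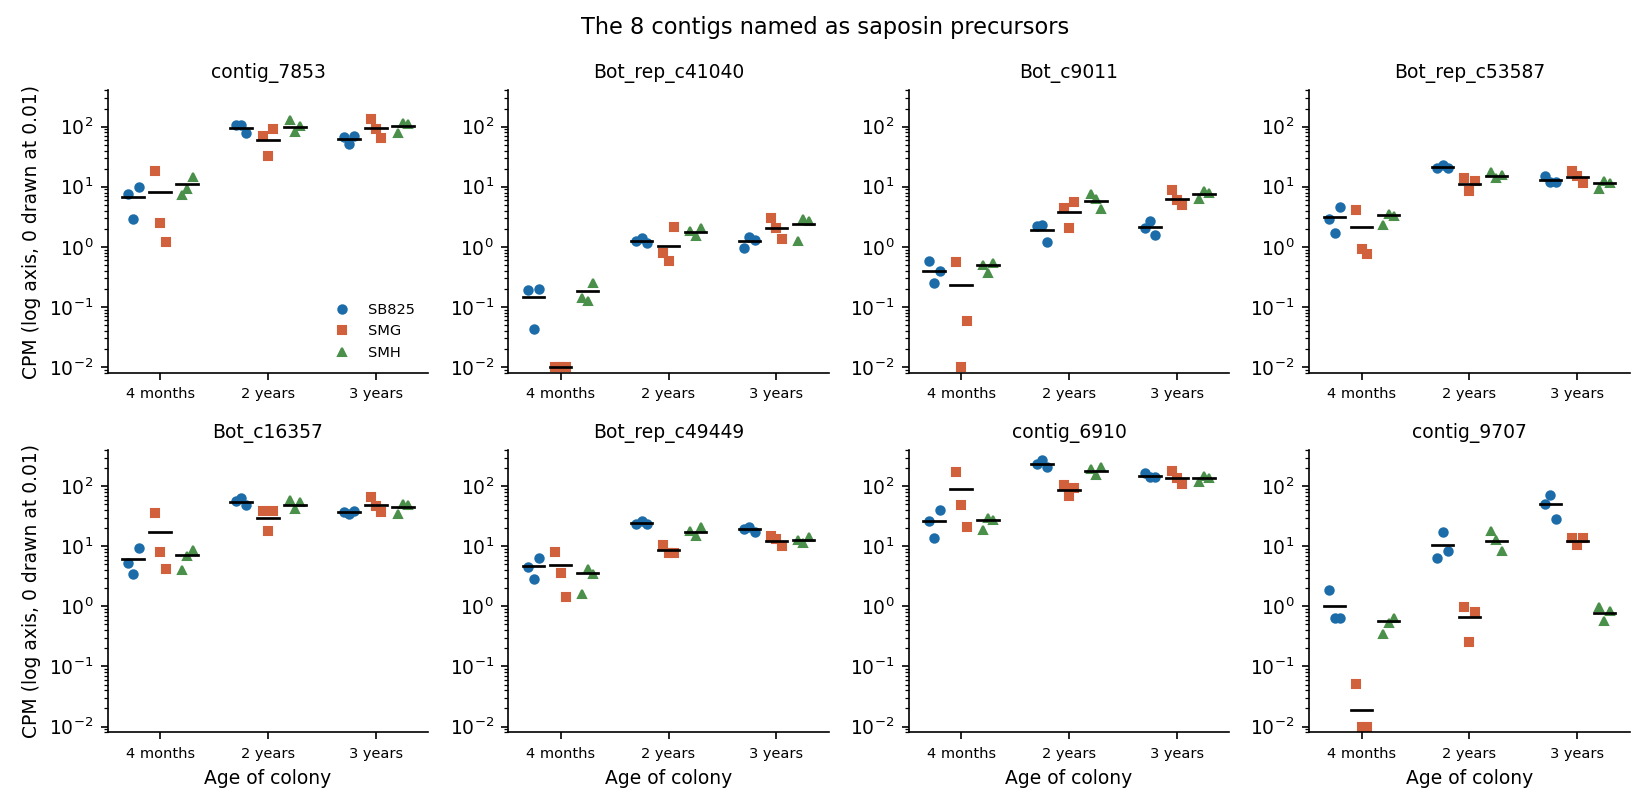
CPM on a log axis of the 8 contigs named as saposin precursors, by age and line, with libraries as points and summed colonies as black bars. Values of 0 are drawn at 0.01. In CAP3_round1_contig_9707 the order of the lines changes with age, with SMH lowest at 3 years (0.57 to 0.97 CPM), while CAP3_round1_contig_7853 keeps all 3 lines within 51.9 to 135 CPM at 3 years.

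At 2 years against the mean of the other ages within a line, again with no test, the 8 contigs had a median log2 difference of 1.66 in SB825, of 0.76 in SMG and of 1.64 in line SMH. CAP3_round1_contig_6910 in SMG had the one value below 0, at -0.29. On colonies, 0 of 8 were called by edgeR, where 5 had an unadjusted p under 0.05, and 2 by DESeq2. Of all 44811 contigs tested by edgeR on colonies, 1401 had an unadjusted p under 0.05, and DESeq2 called 260. The names of the 8 come from the study's list, and spread at each age was examined only for CAP3_round1_contig_7853. Independence from the list is therefore not assured, and nothing is read from these counts beside those of all contigs.

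Within each line, the contig made up a smaller share of the reads of these 8 contigs in the young colony than in the older ones, although young SMH lay above SB825 at 3 years. Its share was 13.8% in SB825, 6.63% in SMG and 20.6% in line SMH at 4 months, 21.6%, 29.8% and 26% at 2 years, and 18.9%, 28.6% and 32.3% at 3 years. These shares were not corrected for contig length. The lowest shares were those of the 3 young SMG libraries, with 7.63%, 3.85% and 4.26%. The library that held the most reads of the contig in that colony therefore still had a low share. Reads of the contig per read of CAP3_round1_contig_6910 averaged 0.25 ± 0.16 at 4 months, 0.55 ± 0.15 at 2 years and 0.62 ± 0.18 at 3 years (SD, n = 3 colonies each), and in young SMG the ratio was 0.091. Since the contig was chosen on its age difference, the difference in share between ages is a description.

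**Figure D4:**
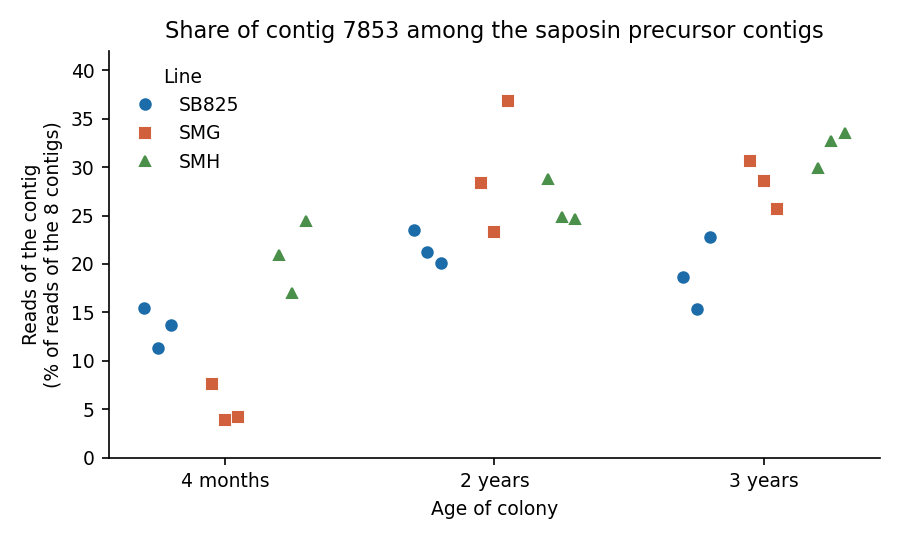
Reads of CAP3_round1_contig_7853 as a percentage of the reads of the 8 saposin precursor contigs in each library, by age and line. Young SMG libraries lie lowest, from 3.85% to 7.63%, libraries of 2 and 3 years lie between 15.4% and 36.8%, and young SMH libraries, from 17% to 24.5%, overlap these.

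Other lysosomal contigs were taken from names in the same list, which was made on these libraries. Of 18 such contigs, 17 were higher at 3 years than at 4 months, with a median log2 difference of 2.87, or 2.64 with contigs without reads set at 3 reads a colony, against 0.27 over all contigs tested. Of all 44811 contigs tested, 26881 were higher at 3 years. Sphingomyelin phosphodiesterase, the acid sphingomyelinase, which degrades a sphingolipid, averaged 4.79 ± 3.92 CPM at 4 months, 27.6 ± 6.3 CPM at 2 years and 28.1 ± 5.4 CPM at 3 years in CAP3_round1_contig_5636. Acyloxyacyl hydrolase, an enzyme that removes fatty acids from bacterial lipopolysaccharide and has a saposin-like small subunit, averaged 1.13 ± 0.36, 7.37 ± 2.52 and 8.45 ± 2.24 CPM in CAP3_round1_contig_3721. Lysosome-associated membrane glycoprotein 1, a main protein of the lysosomal membrane, averaged 24.8 ± 10.4, 79.7 ± 17.6 and 79.8 ± 15.1 CPM in CAP3_round1_contig_3586. Acid sphingomyelinase, acyloxyacyl hydrolase and the membrane glycoprotein were thus higher at both older ages, like CAP3_round1_contig_7853. Since the list was made on the difference between 3 years and 4 months, this shared direction is not independent evidence.

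Lysosome membrane protein 2, the receptor that carries glucocerebrosidase to the lysosome, averaged 0.16 ± 0.17, 1.40 ± 0.19 and 1.40 ± 0.32 CPM at 4 months, 2 years and 3 years in Bot_c6002. The Ciona match of this contig is named platelet glycoprotein 4-like, so its identity as a lysosomal receptor is uncertain. Cathepsin L2, a protease, averaged 14.2 ± 7.1, 64.6 ± 30.6 and 45.3 ± 3.3 CPM in Bot_rep_c52932. Lysosomal protective protein, or cathepsin A, went the other way in Bot_c7256, with 19.6 ± 8.4, 2.86 ± 2.09 and 4.51 ± 4.13 CPM. It was the only lysosomal contig that was lower at 3 years than at 4 months. Dipeptidyl peptidase 1, or cathepsin C, had the largest excess at 3 years over 2 years of the 18, with 9.60 ± 4.84, 12.3 ± 5.3 and 36.6 ± 12.7 CPM in Bot_rep_c57137. At 2 years against the mean of the other ages, on colonies 0 of 18 were called by edgeR and 5 by DESeq2. With edgeR, 11 of the 18 had an unadjusted p under 0.05. Of all 44811 contigs tested by edgeR on colonies, 1401 did, and DESeq2 called 260. Spread at each age was examined only for CAP3_round1_contig_7853, and 4 of the 18 had no reads in any young colony. Independence from the list is therefore not assured, and nothing is read from these counts beside those of all contigs.

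Over the 9 colonies, the contigs whose log2 CPM was most like that of CAP3_round1_contig_7853 were CAP3_round1_contig_6932, which has no name in the list read (Pearson r = 0.99, n = 9), and homologs of ATP-binding cassette sub-family A member 1 (0.98), Trypsin-2 (0.98), Tubulin beta-2C chain (0.98) and Acyloxyacyl hydrolase (0.98). The 10 most like named contigs also held Tryptophan 5-hydroxylase 1, Histone H3.2, Carboxypeptidase A4, Tubulin alpha-3C/D chain and 2 contigs named Macrophage mannose receptor 1, with r from 0.97 to 0.98. At 4 months Histone H3.2 averaged 0 CPM, Tubulin alpha-3C/D chain 0.011 CPM and Tubulin beta-2C chain 0.006 CPM. These contigs were thus nearly absent from young colonies, and their r rests largely on the step between ages. These colonies share the same age difference, and the values are a description over 29949 contigs with at least 1 CPM on average.

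Within colonies, where the age difference drops out, the pattern most like it was that of Meprin A subunit beta, a metalloprotease (r = 0.98 over 27 libraries, as deviations from the colony mean). It was followed by the saposin precursor Bot_c16357 (r = 0.97), by 3 contigs without a name, CAP3_round1_contig_6826, Bot_rep_c48255 and CAP3_round1_contig_8804 (each 0.97), and by Cathepsin L2 (0.97). The next named contigs were Acetylcholinesterase, the amino acid transport protein rBAT, 2 contigs named Cholinesterase, a 3,2-trans-enoyl-CoA isomerase, an organic anion transporter and a Macrophage mannose receptor 1, from 0.94 to 0.96. The other saposin precursors had r of 0.94 for CAP3_round1_contig_6910 and Bot_rep_c53587, 0.81 for Bot_rep_c49449, 0.79 for Bot_c9011, 0.51 for Bot_rep_c41040 and 0.45 for CAP3_round1_contig_9707. The points share library and depth. The largest deviations of the contig, 2.23 and -1.62, were both in the young SMG colony, and these values of r were not repeated without it.

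Of the lists of cell type markers, those of digestive enzymes and phagocyte receptors moved with the contig within colonies, and that of axoneme and testis did not. The deviation of a library in the contig and the median deviation of 87 contigs of digestive enzymes had r = 0.83 over 27 libraries, and 0.68 without the young SMG colony. The r was 0.88 for phagocyte receptors and 0.81 for lysosomal contigs, and without the young SMG colony these were 0.92 and 0.85. It was 0.02 for contigs of the axoneme and testis, and 0.04 without that colony. In the young SMG colony the summed digestive level was 4332 CPM in the first library against 737 and 296 CPM in the others. Summed over colonies it was 571 to 1986 CPM at 4 months, 3464 to 9789 CPM at 2 years and 5022 to 6889 CPM at 3 years, and 86 of 87 digestive contigs were higher at 3 years than at 4 months. Of all 44811 contigs tested, 26881 were. The digestive names come from the study's list, made on this contrast, so their direction is not independent evidence. The digestive contig with the most reads, Chymotrypsinogen B2, ran from 12 to 140 CPM at 4 months, 243 to 681 CPM at 2 years and 331 to 536 CPM at 3 years. Of the 87, 13 had no reads in the young SMG colony. The part of digestive tissue in the level of the contig was not tested.

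Phagocyte receptors summed to 82.1 to 104 CPM at 4 months, 462 to 763 CPM at 2 years and 633 to 1072 CPM at 3 years, and all 22 tested were higher at 3 years than at 4 months. Stabilin-2, a scavenger receptor and the most read of them, ran from 10.1 to 55.7 CPM, from 130 to 552 CPM and from 312 to 584 CPM at these ages. That name is the human match, while the match of the same contig in Ciona is named neurogenic locus notch homolog protein 1-like. Its identity as a phagocyte receptor is therefore uncertain. Axoneme and testis contigs summed to 5.31 to 79.1 CPM, 164 to 556 CPM and 71.0 to 350 CPM, and all 35 were higher at 3 years than at 4 months on the mean over lines. In SB825, however, 30 of 35 were higher and the sum was 71.0 CPM at 3 years against 79.1 CPM at 4 months. Their most read contig, Testis-specific serine/threonine-protein kinase 1, ran from 0.55 to 28.9 CPM, from 58.0 to 134 CPM and from 18.6 to 110 CPM. The names of these lists also come from the study's list, made on this contrast, so their direction is not independent evidence. Of all 44811 contigs tested, 26881 were higher at 3 years than at 4 months. The part of phagocytes and testis in the level of the contig was not tested.

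**Figure D5:**
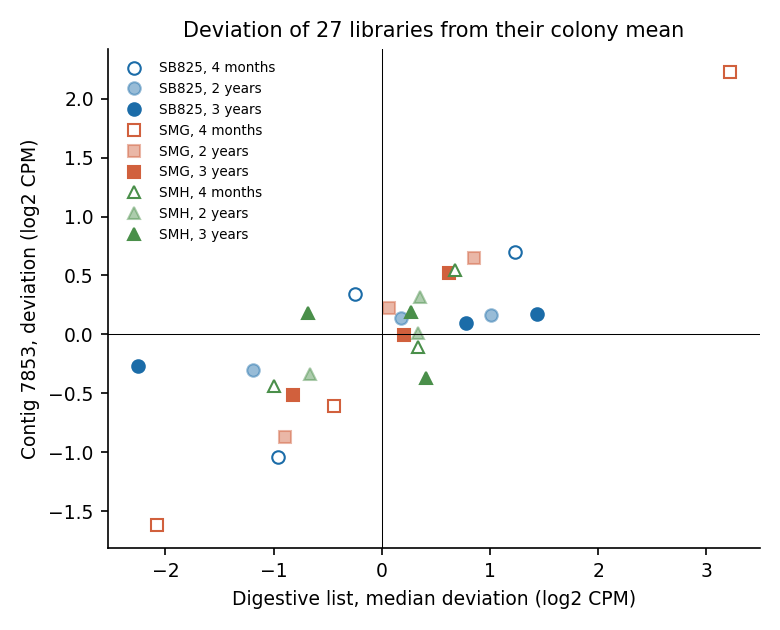
Deviation of each of 27 libraries from the mean of its colony in log2 CPM, for CAP3_round1_contig_7853 (vertical axis) and as the median over 87 digestive contigs (horizontal axis), with lines as shapes and ages as fill. The young SMG library at the upper right lies 2.23 and 3.22 above its colony mean on these axes.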

How the data were processed

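Reads were trimmed at their start by the authors, aligned as pairs to an assembly of ESTs (Bowtie 0.12.7) and counted for each contig (SAMtools 0.1.18, Sam2Counts). The deposited values are raw counts for 50106 contigs in 27 libraries. All counts are even, so counts of read pairs were tried as an alternative. The authors' table of their own DESeq comparison, with fold changes and p-values, was not used. Contig names were read from 1998 rows of their list, of which 879 carry a human match.

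Contigs were kept by filterByExpr, scaled by TMM and tested with glmQLFit (robust) and glmQLFTest of edgeR 4.0.16 under R 4.3.3. P-values were adjusted by Benjamini-Hochberg over all contigs tested, with the study's threshold of 0.10. Standard errors were taken from the F statistic. Colonies were fitted with age and line, libraries as 9 groups of 3 that share 1 spread. DESeq2 1.42.0, other scalings, no filter, fits without a term and leaving out colonies and libraries were alternatives. Log2 CPM used a prior count of 2. The functions were tested on simulated data. Libraries of a colony differed by more than sampling noise (chi-square per degree of freedom 4.43 to 121), so none was counted as a duplicate. Same-numbered libraries of 2 colonies had deviations that correlated from -0.36 to 0.23 across contigs. All 3 pairs were over 0.1 only for SB825 at 3 years and 4 months (0.12 to 0.14), which no test compares alone, so the numbers were not taken as pairs.

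The comparison of 2 years with the other ages within a line was planned as a test on libraries and is given without one, because young libraries spread more widely. The contig, the lists and the tests were chosen with earlier results of these data known. Named contigs are the contig itself, all contigs whose name starts with Proactivator polypeptide, lysosomal contigs (up to 6 in full, and Dipeptidyl peptidase 1, chosen after its values were seen), the most read contig of each other list, and the 5 most like contigs of all tested and the 10 most like with a name. Count and depth limits cover counting error only.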

Additional observations from a re-analysis of the deposited data

Results flagged for a closer look

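Of 24 groups of 9 libraries (8 saposin precursor contigs at 3 ages), 3 held a library far from the others. The threshold flags about 1 in 20 groups of independent, normally distributed values. Each group here pools 3 lines, and the contigs share the same libraries, so that rate does not apply and no test is drawn from it. All 3 were at 4 months. In Bot_c16357 the gap of the first young SMG library, at 35.5 CPM, to the next library was 0.82 of the whole range. In CAP3_round1_contig_6910 the same library, at 171 CPM, had a gap of 0.77 of the range. In CAP3_round1_contig_9707 the first young SB825 library, at 1.87 CPM, had a gap of 0.66 of the range. CAP3_round1_contig_7853 itself was not among them, although the first young SMG library was its highest at 18.1 CPM. The causes were not tested.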

How the results depend on the processing

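The log2 difference of 3.37 between 3 years and 4 months ranged from 3.16 to 3.72 over 14 alternatives, none further from it than the spread between colonies. At 2 years against the mean of the other ages, the contig was called on colonies only with DESeq2 (1.64), and within lines the value ranged over 14 alternatives from 2.07 to 2.43 in SB825, from 0.80 to 2.25 in SMG and from 1.52 to 1.86 in SMH. With library totals alone, SMG minus SB825 was -0.48 over ages, -0.081 at 4 months and -1.54 at 2 years, where it became a call (adjusted p = 0.0567), SMH minus SB825 was -0.077 over ages and -0.47 at 2 years, and SMH minus SMG was -0.15 at 3 years. Without the age term SMG minus SB825 was -0.042 over ages. Leaving out 1 colony or library, SMG minus SB825 ranged from -0.53 to 0.36 over ages and from -1.85 to 0.61 at 4 months, SMH minus SB825 from -0.081 to 0.24 at 2 years, and SMH minus SMG from -0.0043 to 2.46 at 4 months and from -0.17 to 0.35 at 3 years. The cause of these changes was not tested. A colony sum without library 1 of young SMG and the line comparison of 2 minus 3 years were chosen after seeing the data.

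With the replicate number as a replicate block, SMG minus SB825 at 4 months was -0.0087, and the block changed no call of the contig.

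On colonies, contigs called for SMG minus SB825 were 2040, against 4755 with library totals alone, 9392 with DESeq2 and 3412 without the age term. For SMH minus SB825 they were 639, against 1539, 6154 and 1419 under these settings. For SMH minus SMG they were 208, against 4525 with DESeq2, 322 with read pairs and 775 without the age term. At 2 years against the other ages they were 0, against 260 with DESeq2.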
